A study of Mus musculus with 34 samples.

Results

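The 10 genes described here mark the hepatocytes that surround the central vein of the liver lobule and depend there on Wnt signalling: Glul, Slc1a2, Oat, Rhbg, Lgr5, Axin2, Tbx3, Slc13a3, Gulo and Lect2. They were taken by name as a fixed list, with cytochrome P450 genes left out, and all 10 of 10 were found among the 24951 genes of the hepatocyte table and the 26233 genes of the macrophage table. The study measured expression in hepatocytes and macrophages isolated from livers in which YAP and TAZ, a pair of transcriptional coactivators of the Hippo pathway, were deleted from biliary epithelial cells, with and without acute carbon tetrachloride (CCl4) injury. There were 34 libraries from 19 numbered mice of a mixed B6;129P background, and 15 mice gave a library of both cell types.

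Knockout mice carried Opn-CreERt2, a tamoxifen-inducible Cre recombinase driven by the osteopontin promoter, together with Yapfl/fl and Tazfl/fl alleles. Control mice were siblings with the same floxed alleles and no Cre. All mice of both genotypes received tamoxifen, at 1.6 mg/kg on 5 days from 7 to 8 weeks of age, and a washout of 3 weeks followed. Injured mice received CCl4 at 1 ml/kg, with tissue collected after 48 h, and no vehicle injection is mentioned for the mice without CCl4. Hepatocyte libraries came from 4 knockout and 3 control livers after CCl4 and from 5 knockout and 6 control livers without CCl4. Macrophage libraries (cells sorted as F4/80+ CD45+) came from 4 livers in each of the same 4 groups. The Cre driver acts in bile duct cells, which were not sequenced, so hepatocytes and macrophages were read as neighbours of the deleted cells.

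In the healthy lobule, endothelial cells of the central vein release Wnt ligands and R-spondins. These keep β-catenin active in the adjoining hepatocytes, where it works with TCF and LEF factors at DNA. Hepatocytes next to the vein make glutamine from glutamate and ammonia, which sets them apart from the periportal hepatocytes that run the urea cycle and gluconeogenesis. CCl4 is a standard injury of this region because cytochrome P450 enzymes of pericentral hepatocytes turn it into a reactive radical, and the cells around the central vein die first. Expression was counted from tags at the 3′ ends of transcripts (QuantSeq), and levels below are depth-scaled counts (CPM) with TMM factors, which correct for differences in library composition.

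Promoter sequences (250 bases before to 50 bases after the annotated start, from RefSeq, GRCm38.p6) were matched for 6 of the 10 genes, Glul, Slc1a2, Oat, Axin2, Slc13a3 and Lect2. They were searched on both strands for CTTTGA, the core that TCF and LEF factors recognise, which reads TCAAAG on the other strand. It was held by 5257 of the 32851 promoters in the table, and among the 6 matched genes the promoters of Slc1a2 and Lect2 held it. The longer form CTTTGAT, which contains the first motif, was in 3.73% of all promoters and in the same count of 2 of the 6. Both promoters with a match are printed below with the matches in capitals, together with that of Glul, the best known gene of this group, which had no match in this window. A match is a run of letters and was not measured as a bound site. Slc1a2 lies at chr2:102706188-102706487 (+ strand), Lect2 at chr13:56548489-56548788 (- strand) and Glul at chr1:153899679-153899978 (+ strand).
Slc1a2: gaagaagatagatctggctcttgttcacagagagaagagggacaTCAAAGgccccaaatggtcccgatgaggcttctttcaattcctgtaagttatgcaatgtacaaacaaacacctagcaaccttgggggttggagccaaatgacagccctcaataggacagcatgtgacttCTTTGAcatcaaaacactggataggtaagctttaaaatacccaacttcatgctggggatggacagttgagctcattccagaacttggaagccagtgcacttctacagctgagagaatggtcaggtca
Lect2: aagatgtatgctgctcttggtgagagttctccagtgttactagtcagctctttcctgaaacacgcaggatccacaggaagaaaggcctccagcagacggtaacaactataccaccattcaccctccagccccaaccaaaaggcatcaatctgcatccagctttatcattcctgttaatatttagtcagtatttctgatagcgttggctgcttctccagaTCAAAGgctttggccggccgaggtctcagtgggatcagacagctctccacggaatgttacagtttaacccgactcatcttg
Glul: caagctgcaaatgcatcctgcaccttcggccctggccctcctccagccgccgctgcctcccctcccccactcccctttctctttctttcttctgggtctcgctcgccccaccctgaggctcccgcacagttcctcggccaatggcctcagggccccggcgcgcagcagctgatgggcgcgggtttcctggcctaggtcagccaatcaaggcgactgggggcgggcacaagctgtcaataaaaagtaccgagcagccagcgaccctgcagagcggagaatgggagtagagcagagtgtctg
The window of Slc1a2 follows a RefSeq start that lies inside the gene as GENCODE M21 annotates it (chromosome 2, 102658659 to 102790784), so other starts of this gene were not searched. On GENCODE M21, Oat (chromosome 7, 132557478 to 132576398) overlaps the Fgfr2 annotation on the same strand, and Rhbg (chromosome 3, 88242874 to 88254709) overlaps Gm38392 on the same strand. A further 6 of the genes have an overlapping gene on the other strand, among them Glul, which also overlaps Mir8114 on the same strand. Gulo (chromosome 14, 65986786 to 66009207) and Lect2 (chromosome 13, 56542464 to 56548502) overlap none. The strand setting of the authors' counting is not given in the sources used here, so reads of overlapping genes cannot be told apart for the other 8.

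The isolated cells carried the markers of their labels, but macrophage libraries also carried hepatocyte markers. The summed level of 7 hepatocyte markers, among them Alb, Apoa1 and Ttr, was 63190 to 110000 CPM in the 18 hepatocyte libraries and 609.9 to 35430 CPM in the 16 macrophage libraries. The summed level of 10 macrophage markers, among them Adgre1, Clec4f and Csf1r, was 6216 to 21600 CPM in macrophage libraries and 10.4 to 1189 CPM in hepatocyte libraries, and no marker of either list was at 0 in a whole group. In the macrophage libraries of mice 6, 7, 8, 12, 13 and 14 the hepatocyte sum was above the macrophage sum. In mouse 13 the sums were 35430 and 6216 CPM. Hepatocyte libraries held 931496 to 7535053 counts and macrophage libraries 596380 to 5128587, so 3 counts, the limit that a count of 0 allows, stood for 0.398 to 3.22 CPM in hepatocytes and for 0.585 to 5.03 CPM in macrophages. These limits cover counting error only. The sequencing files fall into 2 numbered series, and the first holds control libraries alone: hepatocytes of 3 livers without and 2 with CCl4, and macrophages of 1 liver each. In 2 libraries the labels conflict: hepatocytes from mouse 15 and macrophages from mouse 11 are controls with CCl4 by genotype and group label, but their description names the knockout. They were kept as controls. Leaving them out, or counting them as knockouts, changed which of the 10 genes were called in 1 comparison, hepatocytes of knockout livers with CCl4, where Gulo was lost and 5 remained.

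In hepatocytes of knockout livers, 6 of the 10 genes were lower with CCl4: Glul, Slc1a2, Oat, Rhbg, Tbx3 and Gulo. In edgeR's quasi-likelihood test with Benjamini-Hochberg adjustment over all 9679 genes tested, 6.84% of genes were called lower in this comparison and 13.9% in either direction, at adjusted p under 0.05. In hepatocytes of control livers the same 6 genes were lower, where 13.7% of all genes were called lower and 27.4% in either direction. Under library totals in place of TMM, 1401 genes were higher and 330 lower in knockout livers, against 679 and 662, and 3044 higher and 590 lower in control livers, against 1324 and 1328. The median log2 fold change of the 10 genes was -1.50 in knockout livers and -1.51 in control livers, beside -0.02 and -0.01 over all genes tested. Lgr5, Axin2, Slc13a3 and Lect2 were not called in either genotype. In sorted populations a lower level cannot be told apart between fewer cells of a kind and less RNA per cell.

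Glutamine synthetase (Glul), which joins ammonia to glutamate, stood in hepatocytes at 34.4, 40.9, 49.0 and 63.5 CPM in the 4 knockout livers after CCl4 and at 50.2, 54.3 and 70.1 CPM in the 3 control livers after CCl4. Its levels without CCl4 were 295.9, 873.2, 1034, 1494 and 1604 CPM in the 5 knockout livers, and the lowest, median and highest of the 6 control livers were 408, 1089 and 1629 CPM. Every liver after CCl4 was thus below every liver without it, by a wide gap, while the ranges of knockout and control livers overlapped. With CCl4 the log2 fold change was -4.50 (SE 0.48, adjusted p = 2.27e-05, edgeR) in knockout livers, a 22.6-fold lower level, and -4.19 (SE 0.52, adjusted p = 1.17e-05) in control livers, an 18.2-fold lower level.

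Slc1a2, which encodes a glutamate transporter that brings the substrate of glutamine synthesis into the cell, had 1.64 CPM in 1 knockout liver after CCl4 (mouse 18) and no read in the other 3. In the 3 control livers after CCl4 it stood at 0.35, 0.38 and 2.08 CPM. In the absence of CCl4 it stood at 16.8, 47.7, 68.1, 106.3 and 126.8 CPM in the 5 knockout livers, and at 31.6, 117.3 and 187.9 CPM as lowest, median and highest in the 6 control livers. After CCl4 the transcript was close to the detection limit in all 7 livers, with 5 reads in the knockout group and 16 in the control group altogether. On the log2 scale the CCl4 effect was -6.62 (SE 0.89, adjusted p = 6.97e-05, edgeR) in knockout livers and -6.67 (SE 0.82, adjusted p = 5.09e-06) in control livers. At counts this low the size of the fold change depends on the prior count: without knockout mouse 18, the 1 knockout liver with reads after CCl4, it was -10.56. Leaving out other single livers gave -8.08 to -6.25 in control livers.

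Ornithine aminotransferase (Oat), a mitochondrial enzyme that turns ornithine toward glutamate, stood in hepatocytes at 32.2, 103.8, 106.1 and 106.9 CPM in knockout livers after CCl4 and at 57.1, 71.1 and 85.8 CPM in control livers after CCl4. Without this injury it stood at 149.2, 510.6, 771.9, 1143 and 1578 CPM in knockout livers, and the lowest, median and highest of the control livers were 333.3, 1080.0 and 1379 CPM. Livers with and without CCl4 did not overlap in either genotype, and knockout mouse 14 stood far below the other 3 knockout livers after CCl4. Its log2 fold change with CCl4 was -3.24 (SE 0.62, adjusted p = 0.00228, edgeR) in knockout livers and -3.69 (SE 0.70, adjusted p = 0.000951) in control livers.

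Rhbg, an ammonium transporter of the Rhesus family, was counted by few reads in hepatocytes, 0.66, 1.31, 2.30 and 4.65 CPM in knockout livers after CCl4 and 0.70, 1.70 and 2.88 CPM in control livers after CCl4. Without this injury its levels were 2.54, 10.7, 11.01, 18.3 and 22.1 CPM in knockout livers and 6.27, 18.7 and 31.5 CPM as lowest, median and highest in control livers. Control livers with and without CCl4 did not overlap, whereas knockout mouse 4 without CCl4 fell inside the range of knockout livers after CCl4. The log2 fold change of CCl4 was -2.66 (SE 0.65, adjusted p = 0.00878, edgeR) in knockout livers and -3.14 (SE 0.56, adjusted p = 0.000258) in control livers.

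Among the genes that act in or under Wnt signalling, Tbx3 fell, and Lgr5 and Axin2 did not pass the test. Tbx3, a T-box transcription factor that is a β-catenin target in hepatocytes, stood at 9.17, 9.29, 12.3 and 16.5 CPM in knockout livers after CCl4 and at 6.72, 7.71 and 19.04 CPM in control livers after CCl4. Without CCl4 its levels were 12.7, 22.0, 22.7, 38.3 and 64.5 CPM in knockout livers and 24.2, 37.9 and 54.3 CPM as lowest, median and highest in control livers. Its log2 change with CCl4 was -1.43 (SE 0.45, adjusted p = 0.0394, edgeR) in knockout livers, where the groups overlapped, and -1.82 (SE 0.44, adjusted p = 0.00435) in control livers, where they did not. The call in knockout livers was lost under library totals (adjusted p = 0.0602), without the filter on low counts (0.142), by voom (0.118) and when mouse 10, 14, 17, 18 or 21 was left out (0.123, 0.0801, 0.0902, 0.135 and 0.0832).

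Lgr5, a receptor for R-spondins that strengthens the Wnt signal, stood in hepatocytes at 1.86, 5.36, 6.22 and 7.93 CPM in knockout livers after CCl4 and at 4.55, 7.84 and 9.05 CPM in control livers after CCl4. Levels without CCl4 were 3.55, 7.56, 11.7, 16.5 and 18.7 CPM in knockout livers and 7.33, 8.97 and 14.7 CPM as lowest, median and highest in control livers. All 4 groups overlapped. With CCl4 the log2 fold change was -0.99 (SE 0.42, adjusted p = 0.139, edgeR) in knockout livers and -0.32 (SE 0.37, adjusted p = 0.573) in control livers, and without knockout mouse 4 the knockout comparison called Lgr5 as well.

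Axin2, a scaffold of the complex that degrades β-catenin and a target that Wnt signalling induces in many tissues, stood in hepatocytes at 0.77, 1.97, 3.31 and 3.72 CPM in knockout livers after CCl4 and at 0.35, 3.52 and 5.28 CPM in control livers after CCl4. Without CCl4 it stood at 2.03, 4.41, 8.50, 9.54 and 12.2 CPM in knockout livers and at 0.90, 3.65 and 8.44 CPM as lowest, median and highest in control livers. On the log2 scale the CCl4 effect was -1.57 (SE 0.69, adjusted p = 0.148, edgeR) in knockout livers and -0.58 (SE 0.55, adjusted p = 0.477) in control livers. The unadjusted p was 0.0338 in knockout livers and 0.302 in control livers (edgeR), and the values in knockout livers rest on 1 to 6 reads after CCl4 and 4 to 17 reads without it.

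Of the metabolic and secreted genes, Gulo fell with CCl4 and the others did not pass the test. Gulo encodes L-gulonolactone oxidase, the enzyme that completes vitamin C synthesis in mice, and stood in hepatocytes at 131.4, 200.3, 230.5 and 254.7 CPM in knockout livers after CCl4 and at 201.9, 235.7 and 282.7 CPM in control livers after CCl4. Its levels without CCl4 were 142.6, 419.0, 446.3, 464.2 and 646.1 CPM in knockout livers and 232.4, 557.2 and 784.5 CPM as lowest, median and highest in control livers. A single low liver in each group without CCl4, knockout mouse 4 and control mouse 19, overlapped with the livers after CCl4. Its log2 fold change with CCl4 was -1.05 (SE 0.34, adjusted p = 0.0480, edgeR) in knockout livers and -1.20 (SE 0.37, adjusted p = 0.0212) in control livers. Neither was called under library totals (adjusted p = 0.0853 in knockout and 0.0717 in control livers). The call in knockout livers was lost when any single liver other than mouse 4 was left out (adjusted p up to 0.158), and that in control livers without mouse 12 or 16 after CCl4 (adjusted p = 0.0886 and 0.0674).

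Slc13a3, a sodium-coupled carrier of dicarboxylates, stood in hepatocytes at 13.9, 14.4, 14.9 and 47.5 CPM in knockout livers after CCl4 and at 25.3, 28.9 and 40.6 CPM in control livers after CCl4. In the absence of CCl4 it stood at 16.8, 26.5, 27.2, 33.0 and 39.1 CPM in knockout livers and at 8.41, 21.3 and 32.9 CPM as lowest, median and highest in control livers. The log2 fold change of CCl4 was -0.34 (SE 0.39, adjusted p = 0.627, edgeR) in knockout livers and 0.55 (SE 0.37, adjusted p = 0.295) in control livers. The interaction of genotype and CCl4, -0.89 (SE 0.54, adjusted p = 0.628), did not pass the test.

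Lect2, a protein that hepatocytes secrete into the blood, did not fall. In hepatocytes it stood at 188.4, 201.7, 202.2 and 219.5 CPM in knockout livers after CCl4 and at 157.4, 188.8 and 203.9 CPM in control livers after CCl4. Without this injury it stood at 77.6, 107.2, 126.1, 170.0 and 175.4 CPM in knockout livers and at 57.8, 175.9 and 223.7 CPM as lowest, median and highest in control livers. All 4 knockout livers after CCl4 were above all 5 knockout livers without it, but the log2 fold change of 0.64 (SE 0.27, adjusted p = 0.132, edgeR) did not pass the test, and in control livers it was 0.17 (SE 0.28, adjusted p = 0.702).

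**Figure D1:**
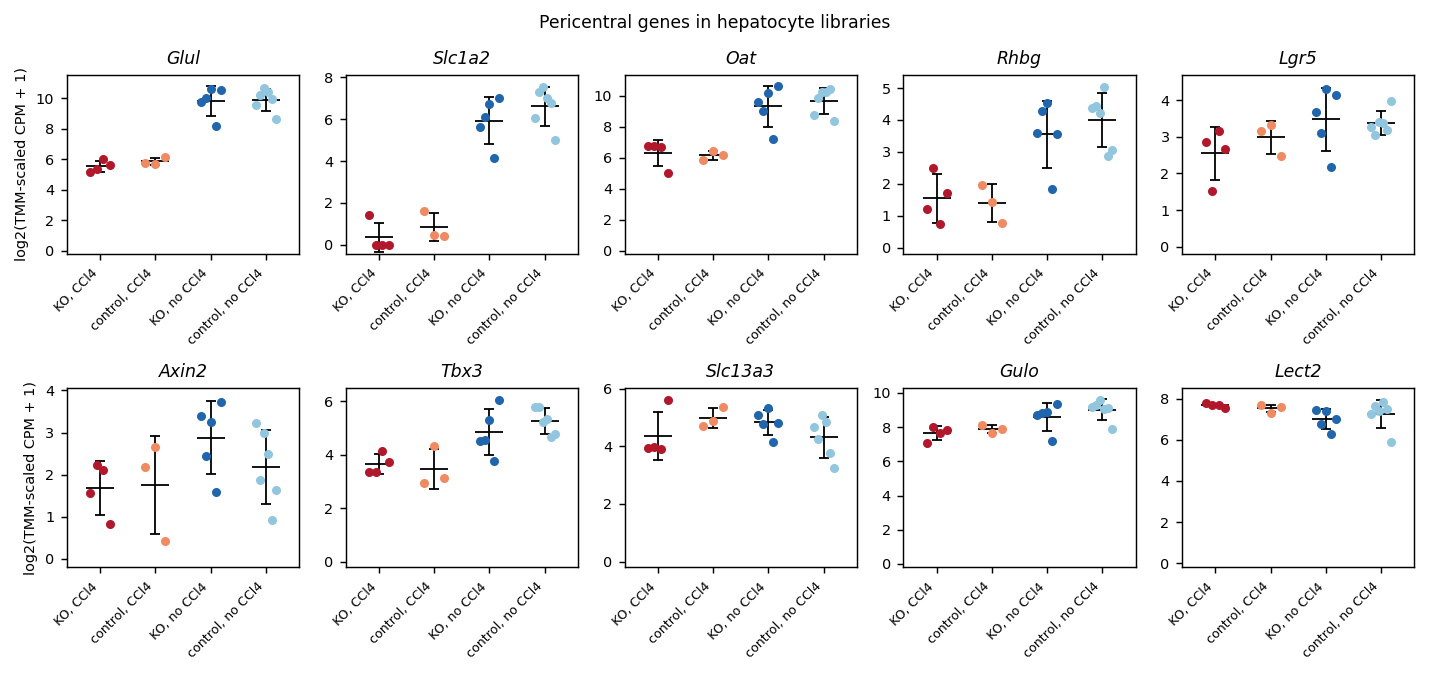
Level of each gene in every hepatocyte library, as log2(TMM-scaled CPM + 1), in 4 groups (points, libraries; bars, mean ± SD). Glul, Slc1a2 and Oat show a gap between livers with and without CCl4 in both genotypes, and Slc13a3 and Lect2 show none in control livers.

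Counted over the list, 5 of the 10 genes (Glul, Slc1a2, Oat, Rhbg and Tbx3) had hepatocyte ranges that did not overlap between control livers with and without CCl4, a pattern that 17.6% of the 16809 genes with 10 or more counts showed. In knockout livers 4 of the 10 (Glul, Slc1a2, Oat and, in the upward direction, Lect2) did not overlap, against 8.48% of genes. With the file series as a term in the model the CCl4 effect in control livers called the same count of 6 genes, and 6 were called without mouse 15. Within the second file series 1 control liver after CCl4 remained, which the fit assumes to vary like the libraries of the other groups. Slc1a2 alone was called there, while Glul stood at -3.67 (adjusted p = 0.0542), Oat at -3.72, Rhbg at -4.18, Tbx3 at -1.90 and Gulo at -0.85, all short of the threshold. The voom alternative called 2 of the 10 genes in knockout livers, Glul and Oat, and leaving out knockout mouse 18 left 3.

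Other cell types' markers moved with CCl4 in the hepatocyte libraries. The 10 macrophage markers summed to 127.8 to 298.9 CPM in knockout livers and 326.9 to 448.3 CPM in control livers after CCl4, and to 98.98 to 1189 CPM in knockout livers and 10.4 to 276.2 CPM in control livers without it. With CCl4 in knockout livers 0 of 10 macrophage markers were called, 5 of 5 proliferation markers and 2 of 5 tested biliary markers were higher (median log2 fold change 4.18 and 0.76) and 3 of 7 hepatocyte markers lower (median -0.58). In control livers 5 of the 10 macrophage markers, 3 of 6 tested stellate and fibroblast markers, 2 of 5 tested biliary markers, 1 of 7 endothelial markers and 5 of 5 proliferation markers were higher, and 3 of 7 hepatocyte markers lower (median -0.56). Without mouse 15 the macrophage markers called in control livers numbered 2, the stellate and fibroblast markers 2 and the endothelial markers 0. The part of these shifts in the fall of the pericentral genes was not tested. The hepatocyte marker sum after CCl4 was 86970 to 108500 CPM in knockout livers and 63190 to 100700 CPM in control livers, and without CCl4 it was 98300 to 110000 CPM in knockout livers and 73210 to 109900 CPM in control livers.

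Periportal genes fell as well. Of 15 genes typical of periportal hepatocytes, all tested, 8 fell and 1 rose with CCl4 in knockout livers (median log2 fold change -0.98), and 9 fell and 1 rose in control livers (median -1.56). Asl, an enzyme of the urea cycle, fell by 2.02 on the log2 scale in control livers (adjusted p = 6.14e-05, edgeR), and Cyp2f2, a periportal cytochrome P450, fell by 2.82 (adjusted p = 0.00063). The falls of Glul, Slc1a2, Oat and Rhbg, each by more than 3 on the log2 scale in control livers, were larger than that of any of these 15 genes, as point estimates whose differences were not tested. The member of the periportal list that rose, Cdh1, encodes E-cadherin and stood 0.92 higher on the log2 scale in control livers (adjusted p = 0.002, edgeR).

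No difference between knockout and control hepatocytes passed the test for any of the 10 genes. Without CCl4, 0 of 10 were called between knockout and control livers, where 7.87% of all genes were called, and edgeR found 0 of 10 also at an unadjusted p under 0.05, as did DESeq2 and limma voom after adjustment. The log2 fold changes of knockout over control ran from -0.65 (Slc1a2, SE 0.45) to 0.48 (Axin2, SE 0.51), and Glul stood at 0.00 (SE 0.35, adjusted p = 0.999). After CCl4, 0 of 10 were called against 0.176% of all genes, with 0 at an unadjusted p under 0.05 and 0 by DESeq2 and voom. The standard errors then ran from 0.31 (Lect2) to 1.39 (Slc1a2). With 4 knockout and 3 control livers, changes well above these values could also have gone undetected. The interaction called 0 of 10 (0 at an unadjusted p under 0.05, 0 by DESeq2 and voom) against 0.217% of all genes, and that of Glul was -0.31 (SE 0.59, adjusted p = 0.922). No hepatocyte range separated knockout from control livers for any of the 10 genes, with or without CCl4, beside 2.45% of genes without and 10.7% of genes after CCl4.

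Among livers without CCl4, single livers carried much of the spread. Knockout mouse 4 was the lowest of the 5 knockout livers for 10 of 10 genes, and control mouse 19 the lowest of the 6 control livers for 6 of 10. In these hepatocyte libraries the macrophage marker sum was also the highest of its group, 1189 CPM in knockout mouse 4 and 276.2 CPM in control mouse 19. Lgr5 went against this in control mouse 19, at 14.7 CPM the highest of its group. The knockout comparison without mouse 4 still called 0 of 10. Without CCl4 the knockout hepatocyte libraries had 6 of 10 macrophage markers higher than controls (median log2 fold change 2.73), as were 3 of 5 proliferation markers and 2 of 5 tested biliary markers (median 2.60 and 1.72), and the part of these shifts in the values was not tested. With the file series as a term 0 macrophage, 0 proliferation and 1 biliary marker were called, and in the second series alone 0 of each. All knockout libraries belong to the second file series, and with the series handled in these ways the knockout comparison without CCl4 again called 0 of 10.

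**Figure D2:**
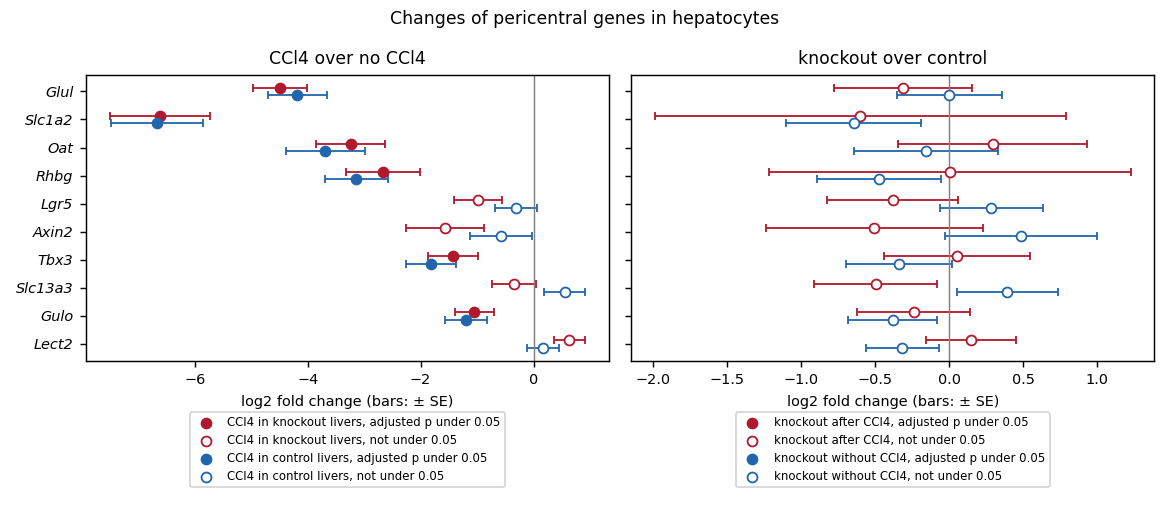
Log2 fold change ± SE in hepatocytes, left for CCl4 over no CCl4 in knockout and control livers, right for knockout over control with and without CCl4. Filled points have an adjusted p under 0.05 (edgeR), and on the right none does.

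Genes of the Wnt pathway that are not in the list changed in small numbers in hepatocytes. Of 11 Wnt ligands and R-spondins, 3 passed the filter on low counts, and with CCl4 in control livers 1 of them fell. This was Wnt5b, mostly a ligand of the branch that does not use β-catenin, which fell by 1.38 on the log2 scale (adjusted p = 0.0308, edgeR). Of 14 Wnt receptors and their regulators, 11 were tested and 3 fell, beside the 13.7% of all genes called lower. The log2 fold change was -1.81 for the receptor Fzd8 (adjusted p = 0.00245, edgeR), -1.03 for the R-spondin receptor Lgr4 (adjusted p = 0.016) and -0.45 for the co-receptor Lrp6 (adjusted p = 0.0353). Of 19 genes of the β-catenin pathway inside the cell, 16 were tested and 2 rose, Pygo2, at 0.71 (adjusted p = 0.0405), and the kinase gene Csnk1e, at 0.97 (adjusted p = 0.0448), where 27.4% of all genes were called in either direction. Without mouse 15, whose labels conflict, 1 receptor gene and 0 intracellular genes were called, in the second file series 0 and 0, and under library totals 2 and 4.

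Among Wnt inhibitors and general Wnt targets of other tissues, calls went both ways in control livers. Of 17 inhibitors and general targets, 6 were tested, and with CCl4 in control livers 3 rose and 1 fell. The proto-oncogene Myc rose by 2.28 (adjusted p = 0.000208, edgeR), Cd44, a cell surface glycoprotein, by 3.37 (adjusted p = 0.00149) and cyclin D1 (Ccnd1) by 1.45 (adjusted p = 0.0056), while Tnfrsf19, a receptor of the tumour necrosis factor family, fell by 1.83 (adjusted p = 0.0154). Without mouse 15, 3 of the 6 were called. In knockout livers 6 of the 6 had negative log2 fold changes with CCl4 (median -0.88), of which 1 was called, Notum, a secreted enzyme that inactivates Wnt ligands, at -1.93 (adjusted p = 0.0058, edgeR). Myc was also higher in knockout than in control hepatocytes without CCl4, by 2.71 (adjusted p = 0.000271), as was Cd44, by 2.96 (adjusted p = 0.0159), and the interaction of Myc, -2.83 (adjusted p = 0.0393), was called. Without mouse 15, and in the second file series alone, 0 of the 6 genes were called in the interaction. Myc and Cd44 are expressed by many cell types, and the macrophage marker shift given above stands beside them. In knockout livers with CCl4, 2 of the 11 receptors fell, Fzd7 and Fzd8, and 1 of the 16 intracellular genes, Dvl2.

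Likeness to Glul was measured over the 18 hepatocyte libraries, as Pearson's r of log2(CPM + 1) across 9097 genes, with the 10 genes left out. The closest by level were Lamp2 (r = 0.961), a lysosomal membrane protein gene, Haao (0.956), an enzyme of tryptophan breakdown, Slc38a4 (0.955), an amino acid transporter, Cyp2e1 (0.951), the cytochrome P450 that activates CCl4, and Ugt2b36 (0.95). After subtraction of each group's mean, so that the CCl4 contrast no longer contributes, genes among the closest were Cyp2e1 (0.879), Akr1c6 (0.874), Coq10a (0.861) and Lamp2 (0.837). Cyp2e1 and Lamp2 were thus among the closest by both measures. These r values are descriptions of libraries that share their depth and composition, and they carry no p.

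In macrophage libraries fewer of the same genes were called with CCl4 than in hepatocytes. Of the 10 genes, 7 passed the filter and were tested over 10815 genes, and Rhbg, Lgr5 and Axin2 were too low. With CCl4 in control livers 4 of the 7 were lower, Glul, Slc1a2, Oat and Gulo, where 6.39% of all genes were called lower and 13.2% in either direction (1373 higher and 403 lower under library totals, against 732 and 691). The ranges of these 4 genes did not overlap, a pattern of 13.3% of the 18131 genes with 10 or more counts. In knockout livers 0 of 7 were called with CCl4 (0.878% of genes were), with 2 at an unadjusted p under 0.05, 1 by DESeq2 (Lect2) and 0 by voom, and 0 of 10 genes had separate ranges, against 5.17%. In macrophage libraries of control livers 7 of 7 hepatocyte markers had negative log2 fold changes with CCl4 (median -1.66, 0 called), 6 of 14 tested periportal genes, 2 of 7 endothelial markers and 3 of 10 macrophage markers were lower (0 of 10 without mouse 11), and 5 of 5 proliferation markers were higher. The hepatocyte marker sum was 609.9 to 16850 CPM in control macrophage libraries after CCl4 and 16370 to 18180 CPM in those without it, and the part of these shifts in the 4 genes was not tested. With mouse 11 left out, the same 4 genes were called in control livers, and in the second file series alone Gulo was lost (adjusted p = 0.0859).

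In macrophage libraries Glul stood at 256.8, 328.2, 471.1 and 632.1 CPM in knockout livers after CCl4 and at 381.2, 385.5, 464.9 and 473.3 CPM in control livers after CCl4. Without this injury its levels were 431.8, 519.8, 524.0 and 686.8 CPM in knockout livers and 792.9, 937.5, 1108 and 1246 CPM in control livers. The 4 control livers without CCl4 were above all other 12 macrophage libraries. With CCl4 the log2 fold change was -0.36 (SE 0.25, adjusted p = 0.640, edgeR) in knockout livers and -1.26 (SE 0.25, adjusted p = 0.00311) in control livers, and the interaction, 0.90 (SE 0.35, adjusted p = 0.305), did not pass the test.

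Slc1a2 stood in macrophage libraries at 7.93, 17.4, 33.7 and 66.0 CPM in knockout livers after CCl4 and at 5.11, 17.4, 20.2 and 24.3 CPM in control livers after CCl4. Without CCl4 its levels were 27.6, 51.9, 53.6 and 56.3 CPM in knockout livers and 83.5, 98.2, 107.1 and 113.2 CPM in control livers. Again the control livers without CCl4 were above every other library. On the log2 scale the CCl4 effect was -0.54 (SE 0.46, adjusted p = 0.715, edgeR) in knockout livers and -2.55 (SE 0.47, adjusted p = 0.00202) in control livers.

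In edgeR's test with all macrophage groups in the fit, Oat alone of the 7 genes was called between genotypes, and 6 had an unadjusted p under 0.05 without CCl4. The share of all genes at that unadjusted cut is not given, and the shares below are at adjusted p. DESeq2 called 2 of the 7 without CCl4. Without CCl4 Oat stood in macrophage libraries at 77.6, 114.2, 139.4 and 145.7 CPM in knockout livers and at 273.6, 280.1, 364.7 and 386.8 CPM in control livers, and the groups were far apart. The knockout difference on the log2 scale was -1.46 (SE 0.23, adjusted p = 0.00726, edgeR), in a comparison where 0.111% of all genes were called lower and 0.166% in either direction. Without knockout mouse 4 the same difference was -1.29 (adjusted p = 0.0525) and no gene of the list was called. With CCl4 Oat stood at 58.4, 61.2, 75.3 and 100.2 CPM in knockout livers and at 78.4, 91.98, 92.2 and 95.4 CPM in control livers, and its fall with CCl4 in control livers was 1.87 on the log2 scale (SE 0.23, adjusted p = 6.54e-05).

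The macrophage ranges of 4 genes, Glul, Slc1a2, Oat and Lect2, did not overlap between knockout and control livers without CCl4, where 6.52% of genes showed this. Lect2 stood at 3.195, 3.198, 6.10 and 17.2 CPM in knockout livers and at 32.5, 33.2, 39.2 and 53.6 CPM in control livers without CCl4 (log2 fold change -2.52, SE 0.81, adjusted p = 0.226, edgeR). Hepatocyte markers moved the same way in these libraries. Their sum was 4809, 6664, 10390 and 15810 CPM in knockout livers and 16370, 16900, 17630 and 18180 CPM in control livers, with 0 of 7 called and 6 of 7 negative (median log2 fold change -1.19). Other marker sums were higher in knockout livers. The stellate and fibroblast sum was 732.1 to 4044 CPM, against 236.5 to 642.9 CPM in control livers. For macrophage markers it was 16820 to 20640 CPM against 12910 to 17750 CPM, and 0 markers of either list were called. The part of these shifts, that of hepatocyte RNA included, in the differences between genotypes was not tested. After CCl4 knockout and control macrophages had 0 of 7 genes called by edgeR, DESeq2 and voom (0 at an unadjusted p under 0.05), against 0.0647% of all genes, and 0 of 10 genes had separate ranges, against 3.18%. The interaction was called for 0 of 7 by edgeR and voom, against 0.194% of all genes by edgeR at adjusted p. DESeq2 called it for 2, and 6 had an unadjusted p under 0.05 by edgeR. No share of all genes is given at those criteria.

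Of the remaining genes, Rhbg, Lgr5, Axin2, Tbx3 and Slc13a3 were low in macrophage libraries, while Gulo ranged more widely. Gulo stood at 3.06, 10.6, 51.9 and 68.5 CPM in knockout livers after CCl4 and at 0.90, 5.70, 20.4 and 27.6 CPM in control livers after CCl4. Levels without CCl4 were 13.4, 16.8, 17.3 and 67.8 CPM in knockout livers and 56.2, 103.3, 111.1 and 152.4 CPM in control livers, and its fall with CCl4 in control livers was 2.95 on the log2 scale (SE 0.80, adjusted p = 0.0259, edgeR). Leaving out control mouse 8, 15 or 16 moved that adjusted p to between 0.0551 and 0.0772. Tbx3 ranged over all groups from 0 to 18.9 CPM and Slc13a3 from 0 to 13.4 CPM, and neither was called in a comparison among macrophages. Rhbg, Lgr5 and Axin2 had 0 to 3.94, 0 to 5.06 and 0 to 5.79 CPM, and in 4 comparisons each their exact two-sided permutation p values lay between 0.0857 and 1, unadjusted, where 4 against 4 livers cannot give less than 0.0286.

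**Figure D3:**
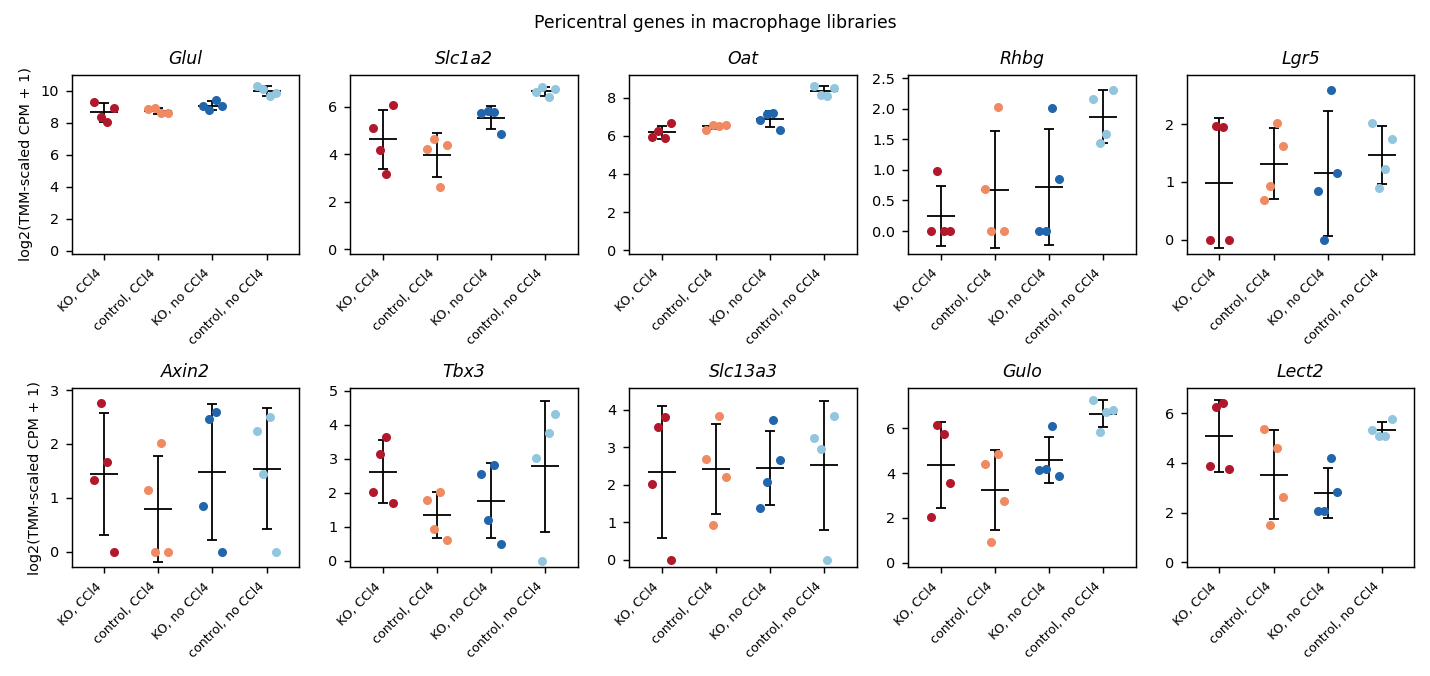
Level of each gene in every macrophage library, as log2(TMM-scaled CPM + 1), in 4 groups of 4 (points, libraries; bars, mean ± SD). For Glul, Slc1a2 and Oat the 4 control livers without CCl4 lie above the other 12 libraries, and Rhbg, Lgr5 and Axin2 stay near the detection limit.

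Set side by side on 1 scale for both cell types (TMM factors over all 34 libraries, 12052 genes tested), Glul and Slc1a2 stood apart after CCl4. Then both were higher in macrophage than in hepatocyte libraries. Glul had a log2 fold change of macrophages over hepatocytes of 2.46 (SE 0.39, adjusted p = 7.22e-06, edgeR) in knockout livers and of 2.20 (SE 0.43, adjusted p = 8.35e-05) in control livers, and Slc1a2 of 4.77 (SE 0.87, adjusted p = 3.63e-05) and 3.29 (SE 0.78, adjusted p = 0.000709). Without CCl4 both were lower in macrophages of knockout livers, Glul at -1.59 (SE 0.36, adjusted p = 0.000386, edgeR) and Slc1a2 at -1.25 (SE 0.54, adjusted p = 0.0475). In control livers without CCl4 neither was called, with Glul at -0.71 (SE 0.34, adjusted p = 0.0689) and Slc1a2 at -0.83 (SE 0.51, adjusted p = 0.152). With the mouse as a replicate block, over the 15 mice with both libraries, Slc1a2 in knockout livers without CCl4 stood at -0.73 (adjusted p = 0.0849), and the block called 9 of 10 genes lower in control livers without CCl4, Glul and Slc1a2 included. Under library totals Slc1a2 in knockout livers without CCl4 stood at -0.57 (adjusted p = 0.338).

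The other 8 genes were lower in macrophages or not called. Without CCl4, 10 of 10 genes were lower in macrophages of knockout livers and 7 of 10 in those of control livers, where 24.4% and 28.5% of all genes were lower (56.5% and 62.8% in either direction). Rhbg, Lgr5 and Axin2 were too low for the macrophage fit and entered the joint fit through the hepatocyte groups, where they were higher. Any call of these genes as lower in macrophages, with or without CCl4, was therefore largely set by the filter and counts for little. After CCl4, 2 genes were higher and 6 lower in each genotype, where 26.8% and 24.1% of all genes were higher and 23.3% and 22.4% lower in knockout and in control livers (50.0% and 46.4% in either direction). Gulo, for example, was lower in macrophages by -3.22 (SE 0.67, adjusted p = 0.000252, edgeR) in knockout and -4.77 (SE 0.74, adjusted p = 5.76e-06) in control livers after CCl4, and Oat was not called there, at -0.93 (SE 0.46, adjusted p = 0.0938) and -0.35 (SE 0.48, adjusted p = 0.586). Library totals moved the median of all genes in these 4 comparisons by 0.54 to 0.75 on the log2 scale toward macrophages. Glul and Slc1a2 were called higher in macrophages after CCl4 under that scaling too, whereas the shift of 0.75 in control livers without CCl4 is about as large as their differences there. With the block Rhbg in knockout livers after CCl4 stood at -3.48 (adjusted p = 0.0508).

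As a share of the hepatocyte mean of the same group, the macrophage mean of Glul was 549% in knockout and 457% in control livers after CCl4, and 33.1% and 60.9% in knockout and control livers without it. For Slc1a2 it was 4550% and 1110% after CCl4, on a hepatocyte mean of 0.52 and 1.15 CPM, and 41.8% and 56.2% without CCl4. The 7 hepatocyte markers measured the same way had medians of 14.7% and 5.68% in knockout and control livers after CCl4 and 5.47% and 11.1% without it, and none of them passed 17.5% in any group. Gulo stood at 10.6% and 3.65% in knockout and control livers after CCl4 and at 4.42% and 12.1% without it. Lect2 stood at 14.6% and 6.17% after CCl4 and at 3.69% and 15.3% without it, so both stayed below 17.5% like the markers. Other genes did not. Oat stood at 52.2% and 78.2% in knockout and control livers after CCl4 and at 9.24% and 22.3% without it. Axin2, on few macrophage reads, stood at 62.15% and 22.8% after CCl4 and at 22.6% and 37.1% without it. Rhbg, Tbx3 and Slc13a3 passed 17.5% in some groups, at up to 33.8%, 33.0% and 21.7%. The CCl4 effect in macrophages minus that in hepatocytes, a test added after seeing the data, was 4.05 for Glul (SE 0.53, adjusted p = 0.000154, edgeR) and 6.02 for Slc1a2 (SE 1.03, adjusted p = 0.00408) in knockout livers, where 0.0415% of all genes were called and 0.0166% in this direction. In control livers it was 2.91 (SE 0.54, adjusted p = 0.00207) and 4.12 (SE 0.93, adjusted p = 0.00792), where 5.0% of genes were called and 1.1% in this direction. By voom Glul alone was called in both genotypes, and Slc1a2 had an adjusted p of 0.148 in knockout and 0.0636 in control livers. By edgeR no other gene of the 10 passed this test in either genotype (with the block, Oat did in control livers). Among periportal genes 0 of 15 passed it by edgeR or voom in either genotype, with 2 at an unadjusted p under 0.05 in each.

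**Figure D4:**
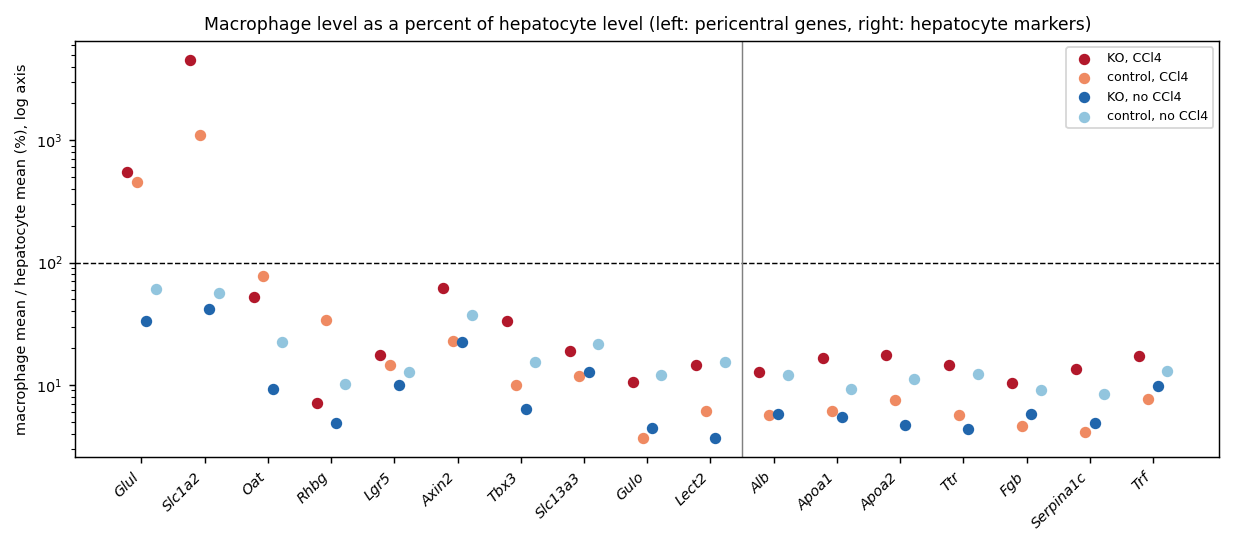
Macrophage mean as a percent of the hepatocyte mean of the same group, on a log axis, for the 10 genes (left) and 7 hepatocyte markers (right), with a dashed line at 100%. After CCl4 Glul and Slc1a2 lie above the line at 457% to 4550%, while every marker lies at or below 17.5%.

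Across the 16 macrophage libraries, the level of each gene was set against the summed hepatocyte, macrophage and endothelial markers, 30 relations in all, with permutation tests and adjustment over the 30. Gulo and Lect2 followed the hepatocyte markers, Gulo with Pearson's r = 0.88 (p = 1e-05, the smallest the 100000 permutations can give, adjusted 0.0003) and Spearman's rho = 0.86, and Lect2 with r = 0.81 (permutation p = 5e-05, adjusted 0.00075) and rho = 0.86. Without the 2 libraries farthest from the median r was 0.80 and 0.76, and within the second file series it was 0.89 and 0.82. Glul (r = 0.14, permutation p = 0.621, rho = 0.05) and Slc1a2 (r = 0.01, permutation p = 0.964, rho = 0.06) did not pass. Slc13a3 passed by rank alone (rho = 0.74, adjusted permutation p = 0.018, against r = 0.59, adjusted 0.0645). With the macrophage markers r was 0.51 for Glul (permutation p = 0.0411, adjusted 0.103, rho 0.47) and 0.64 for Slc1a2 (permutation p = 0.00748, adjusted 0.0560, rho 0.54), which did not pass adjustment, and without the 2 farthest libraries r was 0.12 for Glul and 0.53 for Slc1a2. These values pool 4 groups that differ in both measures, so they mix differences between and within groups. Within groups, as deviations from group means permuted inside each group, an analysis added after seeing the data, r with the hepatocyte markers was 0.89 for Gulo (permutation p = 0.00307, adjusted 0.0230) and 0.94 for Lect2 (permutation p = 0.00233, adjusted 0.0230). It was 0.70 for Slc13a3 (permutation p = 0.0001, adjusted 0.003) and 0.69 for Rhbg (permutation p = 0.00055, adjusted 0.00825), whose macrophage values rest on few reads. For Glul and Slc1a2 it was -0.43 and -0.77 (permutation p = 0.197 and 0.0138, adjusted 0.257 and 0.0570), and with the macrophage markers 0.70 and 0.77 (adjusted permutation p = 0.187 and 0.0749). Axin2, also on few reads, passed within groups with the macrophage markers (r = -0.56, permutation p = 0.00684, adjusted 0.0410).

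The 4 knockout macrophage libraries after CCl4 show the contrast within a single group. Mice 13 and 14 had hepatocyte marker sums of 35430 and 33070 CPM, and mice 17 and 18 of 3605 and 3633 CPM. Gulo stood at 68.5 and 51.9 CPM in the first pair and at 3.06 and 10.6 CPM in the second, and Lect2 likewise at 74.3 and 84.4 CPM and at 13.8 and 12.4 CPM. Glul went the other way, at 328.2 and 256.8 CPM in mice 13 and 14 and at 632.1 and 471.1 CPM in mice 17 and 18, as did Slc1a2, at 17.4 and 7.93 CPM and at 33.7 and 66.0 CPM. The macrophage marker sums were 6216 and 6712 CPM in mice 13 and 14 and 19120 and 21600 CPM in mice 17 and 18. These pairs were picked after the values were seen and carry no test.

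**Figure D5:**
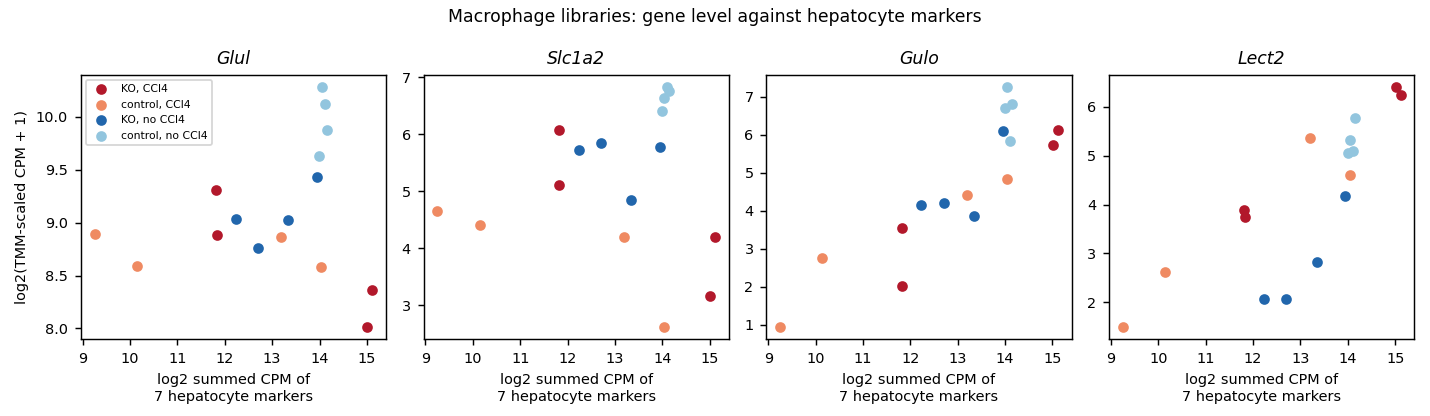
Level of 4 genes in the 16 macrophage libraries, as log2(TMM-scaled CPM + 1), against the log2 summed CPM of 7 hepatocyte markers in the same library. Gulo and Lect2 rise with the markers (r = 0.88 and 0.81), while Glul and Slc1a2 have r = 0.14 and 0.01 over the 4 groups pooled.

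Ordered over all 8 groups on the joint scale, Glul was highest in hepatocytes of control livers without CCl4 (mean 1343 ± 566.5 CPM, SD, n = 6) and of knockout livers without CCl4 (1311 ± 662.5, n = 5), whose ranges overlapped each other and that of control macrophages without CCl4 (817.7 ± 173.7, n = 4). It was next in macrophages of knockout livers without CCl4 (433.5 ± 89.0), control livers after CCl4 (327.4 ± 38.3) and knockout livers after CCl4 (320.3 ± 110.0, n = 4 each), which overlapped with each other but not with control macrophages without CCl4. Lowest were hepatocytes of control livers (71.7 ± 13.9, n = 3) and knockout livers (58.4 ± 15.5, n = 4) after CCl4, below every macrophage library. Slc1a2 had breaks at the same 2 places in its order, and Oat at the first of them. A break separates neighbours in the order of means alone. Hepatocytes without CCl4 reached down to 347.2 (knockout) and 492.0 CPM (control) for Glul, and to 19.65 and 38.04 CPM for Slc1a2. Macrophages of knockout livers without CCl4, below the first break, reached up to 553.5 and 44.21 CPM, so these ranges overlapped across it. In the orders of Gulo and Lect2 the break lay between the cell types, with all 4 hepatocyte groups above all 4 macrophage groups, and in those of Rhbg, Lgr5, Axin2, Tbx3 and Slc13a3 no neighbouring groups were separate.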

How the data were processed

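RNA was measured in 34 libraries of sorted mouse hepatocytes and macrophages. The authors deposited raw counts per gene in 1 table for each cell type. Per the labels' protocols, libraries were made with a 3′ tag kit (QuantSeq FWD) and sequenced as 50 bp reads, and the submitters' processing notes name Trimmomatic 0.39, HISAT2 2.1.0 and the GRCm38 (mm10) build. How reads were assigned to genes (program, annotation, strand) is not given in the sources used here.

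Each cell type was fitted in 1 model of its 4 groups with edgeR 4.0.16 (quasi-likelihood test, filterByExpr, TMM, robust dispersion, R 4.3.3), and both cell types together for macrophages against hepatocytes. P values were adjusted by Benjamini-Hochberg over all genes tested, with a threshold of 0.05, and standard errors were derived from the fold change and its F statistic, so they are approximate. Shares of all genes called are by edgeR at adjusted p under 0.05, and none is given for an unadjusted p. Alternatives were RLE factors, library totals, no filter, DESeq2 1.42.0, limma voom 3.58.1, other edgeR settings, the file series, the conflicting libraries and single libraries left out. The fits were tested on simulated data. Per-library levels are TMM-scaled CPM, and log2 levels have 1 CPM added. Genes absent from the macrophage fit were compared by exact permutation tests (scipy 1.17.1).

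The 10 genes and the other lists were chosen with earlier results of these data known. From each other list, up to 4 genes of lowest p per comparison are named. Further genes of those lists were named after their values were seen. In the ranking of genes by likeness to Glul, 1 gene is not reported here. Libraries of the same number were taken as the same mouse, as their titles number them: deviations from group means correlated between the cell types of a mouse at -0.106 to 0.315 over 15 mice, above 0.1 in 7. Each group's libraries come from separately numbered mice. Total counts per library and the limit that 3 counts set are given with the results. No column was left unmapped.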

Additional observations from a re-analysis of the deposited data

Results flagged for a closer look

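In 7 of 70 sets of 1 gene in 1 group of 4 or more libraries, the gap of a single library to the others of its group passed Dixon's criterion, where chance gives about 1 set in 20. In 2 of the 7, Slc1a2 in mouse 18 and Rhbg in mouse 13, the other 3 libraries were at 0, so any count above 0 would have been picked out and neither shows that a library stands apart. In hepatocytes of knockout livers after CCl4, Slc1a2 was 1.638 CPM (5 reads) in mouse 18 and 0 in the other 3, Oat was 32.16 CPM in mouse 14 with the nearest at 103.8 CPM, and Slc13a3 was 47.48 CPM in mouse 14 with the nearest at 14.87 CPM. In hepatocytes of control livers without CCl4, Lgr5 was 14.72 CPM in mouse 19, above all other livers of that group.

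In macrophages of knockout livers after CCl4, Rhbg was 0.9653 CPM in mouse 13, a single read and under the limit of 3 counts, and 0 in the other 3. In macrophages of knockout livers without CCl4, Slc1a2 was 27.63 CPM in mouse 4 with the nearest at 51.92 CPM, and Gulo was 67.77 CPM in mouse 5 with the nearest at 17.27 CPM. Mouse 5 also had the highest hepatocyte marker sum of that group, 15810 CPM against 4809 to 10390 CPM, and its part in the Gulo value was not tested.

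The effect of CCl4 differed between macrophages and hepatocytes, by the test of the difference, for Glul (4.0534 in knockout livers and 2.9089 in control livers on the log2 scale) and for Slc1a2 (6.0185 in knockout livers and 4.1243 in control livers).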

How the results depend on the processing

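Over the alternatives, 478 values of single genes called in the main fits kept their direction and their side of the threshold. A further 55 missed it with the same direction, and none changed direction. Counts of genes called, given next, and genes that gained a call are not among these values. In hepatocytes with CCl4, the genes called among the 10 numbered 2 in knockout livers by limma voom and 1 in control livers in the second file series alone. Leaving out 1 library gave 3 to 7 in knockout livers, 3 without mouse 18 and 7 without mouse 4, and 5 to 6 in control livers. In macrophages, knockout without CCl4 called 5 without the filter, 2 by DESeq2 and 5 with the groups of that comparison alone, and 0 to 1 with single libraries left out. CCl4 in knockout livers called 1 without the filter and 1 by DESeq2, and the interaction 4 and 2. CCl4 in macrophages of control livers called 3 to 5 with single libraries left out. The CCl4 effect between cell types called 1 by voom in each genotype. The cause of these changes was not tested. With the mouse as a replicate block, the genes called in macrophages against hepatocytes numbered 7 and 7 after CCl4 in knockout and control livers, against 8 and 8, and 8 and 9 without CCl4, against 10 and 7. For the CCl4 effect they numbered 2 in knockout and 3 in control livers. Without the block over the same mice the 4 counts were 9, 7, 8 and 8. Over all genes, the hepatocyte knockout comparison without CCl4 called 762 genes, against 1438 under library totals, 336 with its own groups alone, 79 with the file series as a term, 50 in the second series and 288 to 922 with single libraries left out. After CCl4 it called 17, against 0 to 130. CCl4 in control hepatocytes called 2652, against 502 in the second series. In macrophages, knockout without CCl4 called 18, against 677 without the filter, 257 with its own groups alone, 152 by DESeq2 and 8 by the earlier edgeR method. After CCl4 it called 7, against 392 without the filter. CCl4 in knockout macrophages called 95 (431 without the filter), the interaction 21 (697) and CCl4 in control macrophages 1423 (867 in the second series). The hepatocyte interaction called 21, against 113 without the filter and 0 in the second series. The CCl4 effect between cell types called 5 in knockout livers, against 10 with RLE factors, and 602 in control livers, against 220 with the block and 401 without it over the same mice. Library totals moved the median of all genes by up to 0.75 on the log2 scale. They gave 1313 genes higher and 125 lower for knockout hepatocytes without CCl4, against 449 and 313, and 22 and 10 for knockout macrophages without CCl4, against 6 and 12. For macrophages against hepatocytes they gave 4988 higher and 1605 lower in knockout livers after CCl4, against 3224 and 2807, and 4918 and 1698 in control livers after CCl4, against 2901 and 2697. Without CCl4 they gave 6091 and 1949 in knockout livers, against 3866 and 2946, and 6419 and 1946 in control livers, against 4129 and 3438. Under them Rhbg and Tbx3 were not called in knockout livers after CCl4 (adjusted p = 0.0579 and 0.147). Depth limits Rhbg, Lgr5 and Axin2 in macrophages and Slc1a2 in hepatocytes after CCl4.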
